A study of Homo sapiens and Mus musculus with 13 samples.

Results

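The Notch pathway was followed through 10 genes, the receptors NOTCH1, NOTCH2, NOTCH3 and NOTCH4, the ligands JAG1, JAG2, DLL1 and DLL4, and the target genes HES1 and HEY1. They were taken by symbol from 2 tables of FPKM (fragments per kilobase of transcript and library size, so a level already divided by gene length), human symbols in one and mouse symbols in the other. Among 24523 human symbols, 9 of the 10 members had an entry of their own, and among 55228 mouse symbols all 10 had one. A gene went into the analysis when its FPKM, averaged over all libraries of its species, reached 0.5. This held for 6 human members of 12636 genes and for 10 mouse members of 17328 genes. Human DLL1, DLL4 and HEY1 were under this level, and human NOTCH4 stood only in joint entries with GPSM3, a gene whose annotated exons share 98 bases with NOTCH4 on the same strand.

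The series asked how TRIM11, a ubiquitin E3 ligase, and KDM5C, a histone demethylase, act on breast cancer. The human set held 7 RNA-Seq libraries of MDA-MB-231, a triple-negative human breast cancer cell line. Control cells carried a GFP guide RNA, and 2 lines each carried guides to TRIM11 (TRIM11-KD), KDM5C (KDM5C-KD) or both genes (DKD). The mouse set held mammary tumors of 3-month-old MMTV-PyVT hybrids of C57BL/6N and FVB/N, 3 from Trim11+/+ and 3 from Trim11+/- mice. Per the study's methods the knockdown lines came from lentiviral Cas9 and guide vectors with puromycin selection. How the Control line was made beyond its GFP guide is not given in the sources used here, and each library is 1 line. TRIM11-KD1 had TRIM11 guide 1, TRIM11-KD2 had TRIM11 guide 2, and KDM5C-KD1 and KDM5C-KD2 had KDM5C guides 1 and 2. DKD1 combined TRIM11 guide 1 with KDM5C guide 2, and DKD2 combined TRIM11 guide 2 with KDM5C guide 2, so both DKD lines shared a KDM5C guide. Tumors of both genotypes carried PyVT under the MMTV promoter, which is active in mammary epithelium, and the tumors came from female mice. In Trim11+/- mice exons 2 to 6 of 1 Trim11 allele were deleted in the whole animal, so stroma and vessels carried the deletion too. The labels do not say whether the tumors of a genotype came from different mice, so p-values cover the spread between these samples.

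Notch receptors sit at the cell surface and are cut when a Jagged or Delta-like ligand on a neighbouring cell binds them. The freed inner part of the receptor enters the nucleus, joins RBPJ and a Mastermind coactivator, and switches on targets such as HES1 and HEY1, which are transcriptional repressors. In the mammary gland the pathway is known for its part in luminal and basal cell fate, and DLL4 and NOTCH4 are known from blood vessel endothelium.

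The targeted genes and the labelled cells were examined first. TRIM11 FPKM was 12.6 in Control and 13.6 and 14.2 in KDM5C-KD. It was 13.4 in the library labelled TRIM11-KD1, 10.6 in that labelled TRIM11-KD2, 16.1 in that labelled DKD1 and 9.38 in that labelled DKD2. The mRNA was therefore not below its Control level in 2 libraries that carry a TRIM11 label, TRIM11-KD1 and DKD1. A Cas9 cut need not lower mRNA, so these values do not check the guides. KDM5C FPKM was 30.3 in Control, 29.8 and 28.4 in TRIM11-KD, 20.6 and 21.4 in KDM5C-KD, and 18.8 and 22.7 in DKD, lower in all 4 libraries with a KDM5C guide than in the other 3. Trim11 FPKM was 37.1 ± 1.84 (SD, n = 3) in Trim11+/+ and 23.2 ± 0.660 (SD, n = 3) in Trim11+/- tumors. The mesenchymal markers VIM and AXL were at 1038 to 1309 and 406 to 538 FPKM over the cell lines, PGR was at 0 and ESR1 at no more than 0.0234. ERBB3, which was listed as absent from this line, was at 3.66 to 7.87. The luminal markers Krt8, Krt18, Krt19, Epcam and Cdh1 summed to 1320 to 1832 FPKM in the tumors. Whole reads were recovered from the tumor FPKM, 8793199 to 11117125 per tumor, and the depth of the cell libraries is unknown. Trim11+/+ tumor 1 and Trim11+/- tumor 3 stood apart together. Their deviations from the genotype means correlated at r = 0.37 over genes, the highest value of any pair across genotypes, and in 4665 of 17328 genes (26.9%) both lay above or both below all of the other 4 tumors. This share was not counted for any other pair, so it has no reference here. As each genotype has 1 of the tumors that stood apart, they widen the spread within both for genes in which they lie apart.

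Promoter sequence was taken from RefSeq (GRCh38.p14) in windows from 250 bases before to 50 bases after the start site, which were given for 8 of the 10 members and not for DLL1 and HEY1. The core letters TGGGAA of the RBPJ motif were searched on both strands, as TGGGAA or TTCCCA, with overlapping matches counted. The windows of NOTCH1, NOTCH2, NOTCH3, NOTCH4, JAG1, JAG2 and DLL4 had no match. The HES1 window had 2, which begin 84 and 70 bases before the start. Of all 35116 windows, 24.0% had at least 1 match and 3.80% had 2 or more. The 250 bases before the start are shown for HES1, the member with the motif, on chr3:194135898-194136147 (plus strand, motif in capitals), and for JAG1, the analysed member furthest below Control in the knockdown libraries, on chr20:10674000-10674249 (minus strand, no capitals).
HES1: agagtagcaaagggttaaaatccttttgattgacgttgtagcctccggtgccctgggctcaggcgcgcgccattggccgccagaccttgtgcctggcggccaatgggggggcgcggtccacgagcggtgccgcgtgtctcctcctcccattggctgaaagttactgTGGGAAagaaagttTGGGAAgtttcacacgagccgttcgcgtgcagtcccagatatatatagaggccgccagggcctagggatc
JAG1: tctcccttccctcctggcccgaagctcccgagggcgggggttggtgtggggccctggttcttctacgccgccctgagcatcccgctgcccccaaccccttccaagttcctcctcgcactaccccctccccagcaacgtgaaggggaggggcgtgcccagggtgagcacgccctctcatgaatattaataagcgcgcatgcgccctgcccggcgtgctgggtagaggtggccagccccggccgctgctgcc

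In MDA-MB-231 cells the 2 Jagged ligands were the members that lay on 1 side of Control in every knockdown line and reached the level of 0.5. JAG1 was lower than Control in all 6 knockdown libraries, as were 16.1% of all genes, and JAG2 was higher in all 6, as were 13.6%. The FPKM of JAG1 (hg19 chr20:10618332-10654647), a Jagged ligand, was 26.6 in Control, 16.3 and 6.98 in TRIM11-KD, 9.97 and 9.40 in KDM5C-KD, and 8.43 and 4.95 in DKD. Every knockdown library was thus 1.64 to 5.38 times below the 1 Control library, and within TRIM11-KD and within DKD the line with TRIM11 guide 2 was the lower one. JAG2 (hg19 chr14:105607319-105635161), the other Jagged ligand, was at 1.62 in Control, 2.53 and 2.95 in TRIM11-KD, 3.23 and 2.27 in KDM5C-KD, and 3.95 and 3.31 in DKD. All knockdown libraries lay above Control, and KDM5C-KD2 was the nearest to it, at 1.40 times its level. Both genes share exonic bases with annotated long noncoding RNAs, 306 bases on the opposite strand for JAG1 and 469 bases on the same strand for JAG2. The libraries do not keep the strand, so reads there cannot be assigned.

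The Delta-like ligands were near 0 in these cells. DLL1 was at 0.0855 FPKM in Control and between 0.0340 and 0.199 in the knockdown libraries. DLL4 was at 0.330 in Control and at 0.0821 to 0.248 in the others. The highest DLL4 value was the Control, and DLL1 lay on both sides of it. Neither passed the level of 0.5, and no fold change is given for them.

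Of the receptors, NOTCH2 had the highest level, at 34.4 FPKM in Control, 38.3 and 34.3 in TRIM11-KD, 34.6 and 39.6 in KDM5C-KD, and 38.8 and 31.2 in DKD. The highest library was 1.27 times the lowest, and all groups of 2 lines overlapped. NOTCH2 has partial copies elsewhere in the human genome, and how reads from them were counted is not given in the sources used here. NOTCH1 was at 8.77 in Control, 9.91 and 12.8 in TRIM11-KD, 7.54 and 7.06 in KDM5C-KD, and 10.5 and 12.2 in DKD. The 4 libraries with a TRIM11 guide were the 4 highest, and both KDM5C-KD lines were the lowest.

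NOTCH3 was near the limit of the analysis, at 0.696 FPKM in Control, 1.13 and 0.619 in TRIM11-KD, 1.15 and 0.258 in KDM5C-KD, and 1.49 and 0.532 in DKD. The 3 lines numbered 1 were above Control and the 3 lines numbered 2 were below it. The share of all genes with such a split was not counted, and its cause was not tested. Lines of the same number shared a TRIM11 guide in TRIM11-KD and DKD, while both DKD lines carried KDM5C guide 2. The joint entry of GPSM3 and NOTCH4 was at 15.6 in Control, 10.3 and 3.31 in TRIM11-KD, 11.2 and 11.2 in KDM5C-KD, and 7.99 and 4.06 in DKD. It was lower in all 6 than in Control, but its reads cannot be assigned to either gene, and the other 6 of 7 joint entries were at 0.

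Of the targets, HES1 was among the highest members, at 35.2 FPKM in Control, 40.1 and 36.6 in TRIM11-KD, 37.4 and 31.3 in KDM5C-KD, and 52.6 and 51.3 in DKD. Both DKD lines lay above the other 5 libraries and were 1.495 and 1.457 times Control, just short of the 1.5-fold threshold. HEY1 was at 0.279 in Control, 0.0776 and 0.0291 in TRIM11-KD, 0.119 and 0 in KDM5C-KD, and 0.0882 and 0.0756 in DKD. It was highest in Control, but all values were too low to be tested.

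**Figure D1:**
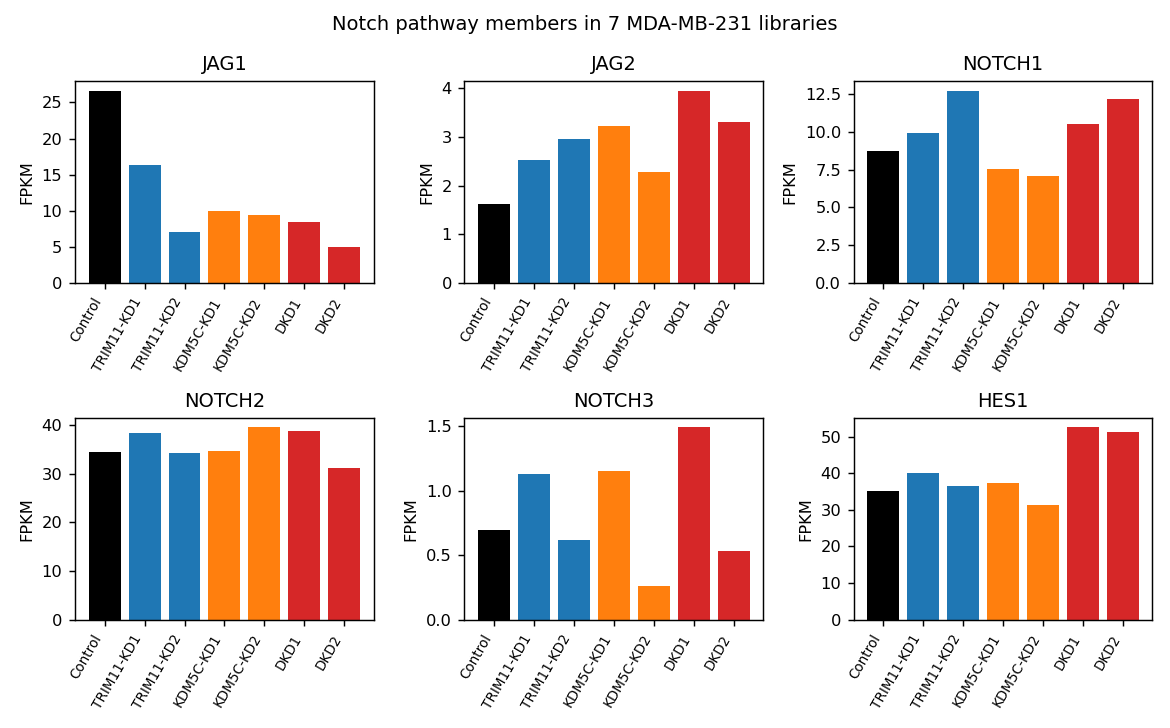
FPKM (vertical axis, linear, from 0) of the 6 members with a mean of at least 0.5 in the 7 MDA-MB-231 libraries, 1 bar per library (black Control, blue TRIM11-KD, orange KDM5C-KD, red DKD). JAG1 is at 26.6 in Control and between 4.95 and 16.3 in the others, JAG2 is lowest in Control, and the NOTCH3 bars alternate with the number of the line.

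By mean over the 7 libraries, the order was HES1 (40.6 FPKM), NOTCH2 (35.9), JAG1 (11.8), NOTCH1 (9.82), JAG2 (2.84) and NOTCH3 (0.839). The ranges of HES1 and NOTCH2 overlapped, as did those of JAG1 and NOTCH1. NOTCH2 was above JAG1 and NOTCH1 above JAG2 in every library, and the highest NOTCH3 value, 1.49, was under the lowest JAG2 value, 1.62.

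To compare each knockdown with Control, a gene was counted above when both lines reached 1.5 times its FPKM, and below when Control reached 1.5 times that of both lines. There is 1 Control library, so no p-value is given, and the 3 comparisons share it. In TRIM11-KD, 1 of 6 members was counted above (JAG2, 1.69 times Control by the mean of both lines) and 1 below (JAG1, 0.437 times). Over all genes 3.25% were above and 2.58% below. In KDM5C-KD no member was counted above and 1 was counted below (JAG1, 0.364 times), where 5.22% and 3.97% of all genes were. In DKD, JAG2 was counted above (2.24 times) and JAG1 below (0.251 times), beside 5.71% and 4.87% of all genes. The median log2 ratio of the 6 members was 0.22 in TRIM11-KD, -0.0074 in KDM5C-KD and 0.46 in DKD, and that of all genes was -0.0080, -0.0025 and -0.00027. JAG1 was the member at least 1.5 times below Control in each of the 6 knockdown libraries, as were 0.910% of all genes.

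The 57 other genes of the pathway were read in the same way, and 51 of them passed the level of 0.5. In TRIM11-KD 2 were above and 2 below Control, in KDM5C-KD 6 and 5, and in DKD 4 and 2. Over all genes 3.25% were above and 2.58% below in TRIM11-KD, 5.22% and 3.97% in KDM5C-KD, and 5.71% and 4.87% in DKD. Of 9 further targets 1 was above in TRIM11-KD, 4 in KDM5C-KD and 2 in DKD, and 1 was below in KDM5C-KD. The target below was CCND1, at 230 FPKM in Control and 146 and 140 in KDM5C-KD. Over the 51 genes the median log2 ratio was 0.050 in TRIM11-KD, -0.021 in KDM5C-KD and 0.062 in DKD. In all 6 knockdown libraries NRARP was at least 1.5 times above Control (1.16% of all genes were), and LFNG and MAML3 were at least 1.5 times below it. LFNG, a Fringe glycosyltransferase that adds sugars to Notch receptors, was at 8.58 FPKM in Control, 4.50 and 1.97 in TRIM11-KD, 3.22 and 4.03 in KDM5C-KD, and 4.90 and 3.36 in DKD. MAML3, a Mastermind coactivator, was at 1.84 in Control, 0.969 and 0.412 in TRIM11-KD, 0.651 and 0.728 in KDM5C-KD, and 0.449 and 0.277 in DKD. It was thus near the limit of the analysis, with TRIM11-KD2, DKD1 and DKD2 under 0.5, and its read numbers are unknown. NRARP, a Notch target that feeds back on the pathway, went the other way, from 1.34 in Control to 2.38 and 2.22 in TRIM11-KD, 2.93 and 3.24 in KDM5C-KD, and 3.92 and 2.97 in DKD.

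Further pathway genes passed in 1 or 2 of the knockdowns. The target HES7 was at 0.932 FPKM in Control, 1.28 and 2.62 in TRIM11-KD, 5.06 and 3.97 in KDM5C-KD, and 1.37 and 2.42 in DKD. HES7 was thus higher in both KDM5C-KD lines than in any other library. The target HEYL was at 0.652 in Control, 0.864 and 3.39 in TRIM11-KD, 1.45 and 2.86 in KDM5C-KD, and 0.851 and 3.43 in DKD. The 3 highest HEYL libraries were the lines numbered 2. MFNG, another Fringe, was at 1.57 in Control and at 0.839 and 0.301 in KDM5C-KD, while the other 4 libraries lay between 1.29 and 1.61. NEURL1, which helps ligand endocytosis, was at 1.499 in Control and 3.02 and 7.56 in TRIM11-KD, and its 3 highest libraries were the lines numbered 2. The target HES6 was at 2.67 in Control, 2.98 and 3.57 in TRIM11-KD, 4.75 and 4.17 in KDM5C-KD, and 5.72 and 7.20 in DKD. NEURL1B, a relative of NEURL1, was at 2.43 in Control, 3.42 and 5.72 in TRIM11-KD, 3.99 and 4.79 in KDM5C-KD, and 4.28 and 6.49 in DKD. Both were counted above in KDM5C-KD and in DKD. NUMBL, a relative of the Notch inhibitor NUMB, was counted above in DKD alone (10.6 in Control, 10.4 to 13.7 in the single knockdowns, 16.2 and 16.1 in DKD). None of the 9 genes for cleavage of the receptor, the γ-secretase subunits among them, was counted in any of the 3 comparisons.

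**Figure D2:**
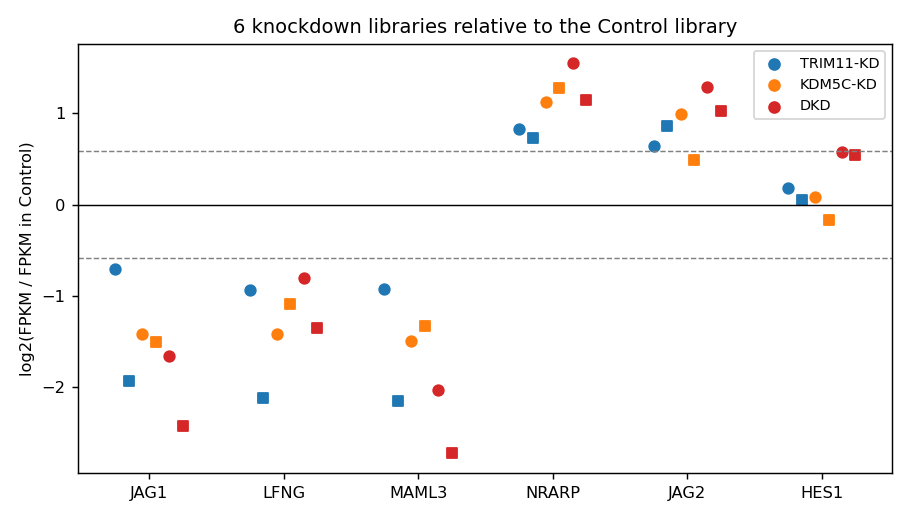
Log2 ratio of FPKM to the 1 Control library (vertical axis) for 3 members and the 3 pathway genes that passed in all 6 libraries, 1 point per library (circles, lines numbered 1, and squares, lines numbered 2), with dashed lines at 1.5-fold. JAG1, LFNG and MAML3 lie below the lower line in all 6 libraries and NRARP above the upper line in all 6, and for HES1 the DKD points lie just under it.

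The additive fit over all 7 libraries asked what each guide did across both backgrounds. With a TRIM11 guide (4 libraries against 3), 4 of 6 members had an unadjusted limma p under 0.05, 3 higher and 1 lower. Of all genes 10.7% had, 5.19% higher and 5.48% lower. No member passed after Benjamini-Hochberg adjustment, and 0 of 12636 genes did. NOTCH1 was at 11.3 ± 1.35 FPKM (SD, n = 4) with and 7.79 ± 0.880 (SD, n = 3) without a TRIM11 guide, a difference of 0.47 ± 0.13 (SE) on the log2(FPKM + 1) scale (limma adjusted p = 0.448). It was the 1 member whose libraries with and without the guide did not overlap, and 4.20% of all genes were likewise higher without overlap. HES1 differed by 0.40 ± 0.13 (SE), JAG2 by 0.39 ± 0.14 (SE) and JAG1 by -0.80 ± 0.31 (SE), with overlap in all 3. Over the 6 members the limma adjusted p ran from 0.448 to 0.955. Without Control, DKD1 or DKD2 the count of 4 members was 2, with NOTCH1 in each.

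With a KDM5C guide, 2 of 6 members had an unadjusted limma p under 0.05, 1 higher and 1 lower, beside 11.1% of all genes, 5.87% higher and 5.18% lower. Neither passed after Benjamini-Hochberg adjustment, and 1 of 12636 genes did. JAG1 differed by -0.94 ± 0.31 (SE) and JAG2 by 0.39 on the log2(FPKM + 1) scale, with limma adjusted p of 0.397 and 0.423 (Benjamini-Hochberg). Without the Control library the difference of JAG1 was -0.65 for the KDM5C guide and -0.51 for the TRIM11 guide, so both were smaller when the 1 Control value was left out, and they then rest on DKD against TRIM11-KD and on DKD against KDM5C-KD alone. The count of 2 members was 1 without Control, KDM5C-KD1, DKD1 or DKD2 and 0 without TRIM11-KD1. NOTCH1, NOTCH2, NOTCH3 and HES1 did not pass the unadjusted threshold.

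DKD was compared with KDM5C-KD because the study asks which changes of the KDM5C knockdown return when TRIM11 is also knocked down. Both DKD lines carried KDM5C guide 2, as did KDM5C-KD2 but not KDM5C-KD1. The comparison therefore differs in the KDM5C guide as well as in the TRIM11 guide. HES1 was at 52.0 ± 0.942 FPKM (SD, n = 2) in DKD and 34.3 ± 4.33 (SD, n = 2) in KDM5C-KD, 0.59 ± 0.13 (SE) higher on the log2(FPKM + 1) scale. NOTCH1 was at 11.4 ± 1.199 in DKD and 7.30 ± 0.336 in KDM5C-KD, 0.57 ± 0.16 (SE) higher. Both had an unadjusted limma p under 0.05, as had 11.7% of all genes (5.86% higher in DKD), and a Benjamini-Hochberg adjusted p of 0.379 (0 of 12636 genes passed after adjustment). JAG1 lay lower (-0.51) and JAG2 higher (0.31) in both DKD lines than in both KDM5C-KD lines, without passing. Neither returned towards Control in DKD. In all, 3 members were higher and 1 lower in DKD without overlap, where 21.3% and 22.0% of all genes were. For HES1 the effect of the TRIM11 guide differed between lines with and without a KDM5C guide by 0.47 (limma, Benjamini-Hochberg adjusted p = 0.879), which does not pass, and no other member had a lower value.

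**Figure D3:**
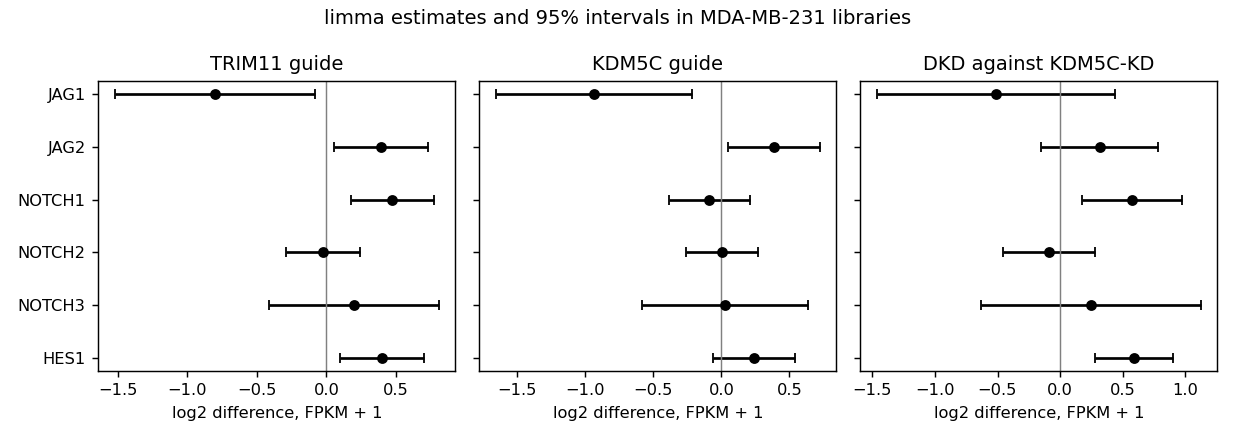
Log2 differences on the FPKM + 1 scale (horizontal axis) with 95% intervals from limma for the 6 members, in the comparison of libraries with and without a TRIM11 guide, with and without a KDM5C guide, and of DKD with KDM5C-KD. The intervals of NOTCH1 and HES1 lie above 0 for the TRIM11 guide and in DKD against KDM5C-KD, and those of JAG1 lie below 0 for each guide, before adjustment.

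In the MMTV-PyVT tumors all 10 members were measured, and all passed the level of 0.5, against 6 in the cell line. By mean over the 6 tumors the order was Hey1 (69.2 FPKM), Hes1 (22.4), Notch1 (15.4), Notch3 (14.6), Dll1 (11.2), Notch2 (6.01), Jag2 (4.56), Jag1 (3.17), Dll4 (2.15) and Notch4 (2.03). Hey1 was above Hes1 in every tumor, and of the other neighbours in this order all overlapped in range. Between 50 and 133 reads stood behind Dll4, 108 to 248 behind Notch4, and 1637 to 4039 behind Hey1, so the lowest members carry the largest counting error. In these bulk tumors fewer cells of a type and less RNA per cell cannot be told apart.

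Jag2 was the 1 member that differed between the genotypes by the rule used, mean levels at least 1.5-fold apart with an unadjusted limma p under 0.05, which 1.87% of all genes met in this direction and 3.61% in either. The FPKM of Jag2 (mm10 chr12:112907819-112929776) was 7.31, 4.18 and 5.21 in Trim11+/+ tumors 1 to 3 and 3.67, 2.86 and 4.17 in Trim11+/- tumors 1 to 3. The groups did not overlap (6.78% of all genes were lower in Trim11+/- without overlap), but the lowest Trim11+/+ value and the highest Trim11+/- value differed only in the third digit. The means were 5.56 ± 1.59 and 3.56 ± 0.662 (SD, n = 3 each), 1.56-fold lower in Trim11+/-, and the log2 difference was -0.51 ± 0.21 (SE; 95% interval -1.003 to -0.011). The limma p was 0.0464 and 0.713 after Benjamini-Hochberg adjustment, and the two-sided exact permutation p was 0.1, the smallest that 3 against 3 tumors can give. The call was lost without Trim11+/+ tumor 1 (-0.32), Trim11+/+ tumor 3 (-0.53), Trim11+/- tumor 1 (-0.53) or Trim11+/- tumor 2 (-0.39), and without both tumors that stood apart (-0.42).

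Basal and myoepithelial markers moved with Jag2. Their 6 genes summed to 334, 134 and 198 FPKM in Trim11+/+ and to 95.7, 62.9 and 91.4 in Trim11+/- tumors, without overlap, and over the 6 tumors Jag2 and this sum correlated at r = 0.97, with genotype and library shared by both. Of the 6 markers, 4 were lower by the same rule, the keratins Krt5, Krt14 and Krt17 and the basal regulator Trp63, while Acta2 and Myh11 overlapped between the genotypes. None of the 4 passed after adjustment (limma, Benjamini-Hochberg p of 0.610 for Krt5 to 0.684 for Krt17). No basal marker was at 0. The part of basal cells in the Jag2 difference was not tested.

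Jag1 was at 2.98, 3.09 and 2.74 FPKM in Trim11+/+ and 3.33, 2.34 and 4.54 in Trim11+/- tumors. The Trim11+/- tumors lay on both sides of the others (log2 difference 0.13 ± 0.20, SE; 95% interval -0.34 to 0.61). Tumors and cell lines were not compared by a test.

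The Delta-like ligands varied more within each genotype than between the genotype means. Dll1 (mm10 chr17:15367354-15376872) was at 4.06, 14.7 and 13.7 FPKM in Trim11+/+ and 16.1, 15.2 and 3.46 in Trim11+/- tumors. It thus stood at 2 levels, low in Trim11+/+ tumor 1 and Trim11+/- tumor 3, the tumors that stood apart, and high in the other 4, with the highest 4.66 times the lowest. Its exons share 867 bases with A930024N18Rik on the opposite strand. Dll4 was at 1.52, 2.22 and 2.12 in Trim11+/+ and 3.11, 2.72 and 1.21 in Trim11+/- tumors, and the same 2 tumors were the lowest. The log2 differences were 0.029 ± 0.65 (SE) for Dll1 and 0.14 ± 0.26 (SE) for Dll4, and their intervals, -1.53 to 1.58 and -0.49 to 0.76, leave room for large differences in either direction. Without the tumors that stood apart, which left 2 against 2, Dll1 was 1.10 times and Dll4 1.34 times as high in Trim11+/- as in Trim11+/+. Neither passed (limma, Benjamini-Hochberg adjusted p of 0.689 and 0.583).

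**Figure D4:**
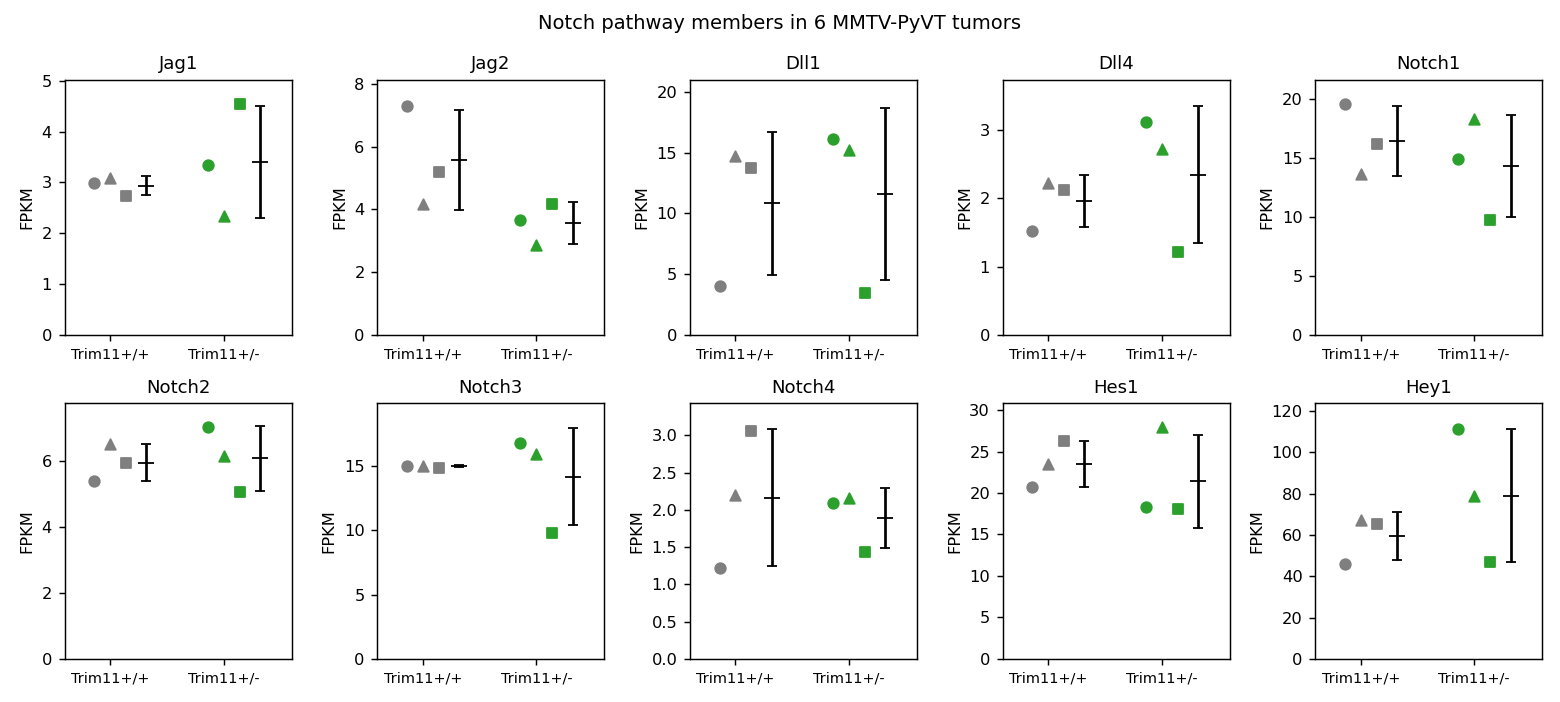
FPKM (vertical axes, linear, from 0) of the 10 members in 3 Trim11+/+ (grey) and 3 Trim11+/- tumors (green), 1 point per tumor (circle tumor 1, triangle tumor 2, square tumor 3), with the mean and SD beside them. Jag2 is the member without overlap, and Dll1 stands at 2 levels that cut across the genotypes.

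Among the receptors Notch1 was at 19.5, 13.6 and 16.2 FPKM in Trim11+/+ and 14.9, 18.3 and 9.72 in Trim11+/- tumors. Notch3, a receptor known from mural cells, was at 15.0, 15.0 and 14.9 in Trim11+/+ and 16.8, 15.9 and 9.84 in Trim11+/- tumors. In both genes Trim11+/- tumor 3 was the lowest of all 6, and the genotypes overlapped. Notch2 was at 5.38, 6.50 and 5.94 in Trim11+/+ and 7.03, 6.14 and 5.06 in Trim11+/- tumors. Notch4 was at 1.23, 2.20 and 3.07 in Trim11+/+ and 2.09, 2.16 and 1.43 in Trim11+/- tumors, again lowest in the tumors that stood apart. The log2 differences of the 4 receptors ran from -0.22 ± 0.24 (SE) for Notch1 to 0.022 ± 0.14 (SE) for Notch2. Exons of Notch1, Notch3 and Dll4 overlap annotated transcripts on the opposite strand, and those of Notch2 share 541 bases with Gm42820 on the same strand.

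Of the targets, Hes1 was at 20.7, 23.5 and 26.2 FPKM in Trim11+/+ and 18.3, 27.9 and 18.0 in Trim11+/- tumors. The genotypes overlapped (log2 difference -0.15 ± 0.19, SE). Hey1 was at 46.0, 67.2 and 65.1 in Trim11+/+ and 111, 79.0 and 46.7 in Trim11+/- tumors, with the highest values in Trim11+/- tumors 1 and 2 and the lowest in the tumors that stood apart. The difference was 0.34 ± 0.32 (SE; limma adjusted p = 0.855). Without Trim11+/- tumor 3 it was 0.67 (limma adjusted p = 0.548), past the rule used here, and without both tumors that stood apart it was 0.50 and did not pass (adjusted p = 0.529).

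The lowest adjusted p of the 10 members was that of Jag2, and the highest was 0.996 (limma, Benjamini-Hochberg). Their median log2 difference was -0.037, against -0.0048 for all genes, and 5 of 10 lay above 0. Without the tumors that stood apart no member passed the rule.

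Several members followed each other across the 6 tumors, as a description only, since the same libraries and the same 2 low tumors are behind each value. Dll4 and Hey1 correlated at r = 0.96, Dll1 and Dll4 at 0.93 and Dll1 and Hey1 at 0.86, on log2(FPKM + 1). The receptor Notch2 followed the same genes, at 0.94 with Dll4, 0.93 with Hey1 and 0.90 with Dll1. The 7 endothelial markers summed to 18.5, 27.4 and 28.0 FPKM in Trim11+/+ and 25.4, 24.7 and 16.0 in Trim11+/- tumors, lowest in the same 2 tumors. Their sum correlated with Dll1 at 0.95, Notch4 at 0.88, Notch2 at 0.82, Dll4 at 0.81 and Notch3 at 0.75. Notch3 correlated with the summed mural cell markers at 0.83, which were 20.0, 28.8 and 32.4 in Trim11+/+ and 28.9, 23.4 and 13.2 in Trim11+/- tumors. Other sums moved alike. The 4 adipocyte markers summed to 11.97, 98.5 and 23.3 in Trim11+/+ and 63.2, 33.8 and 7.17 in Trim11+/- tumors, and correlated with Notch2 at 0.93, Dll1 at 0.87 and Dll4 at 0.82. The mural sum correlated with Dll1 at 0.87, and the luminal sum with Notch3 at 0.79. Within the mural sum, Des was at 0.683, 3.20 and 9.53 in Trim11+/+ and 7.76, 0.0909 and 0.0496 in Trim11+/- tumors. The 4 skeletal muscle markers summed to 18.1, 88.6 and 182 in Trim11+/+ and 218, 0.709 and 0.679 in Trim11+/- tumors, and correlated with Notch3 at 0.56. The mural, adipocyte and T cell sums were also lowest in the 2 tumors that stood apart. None of these markers was at 0 in all tumors, and the part of any of these cells in the members' levels was not tested.

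**Figure D5:**
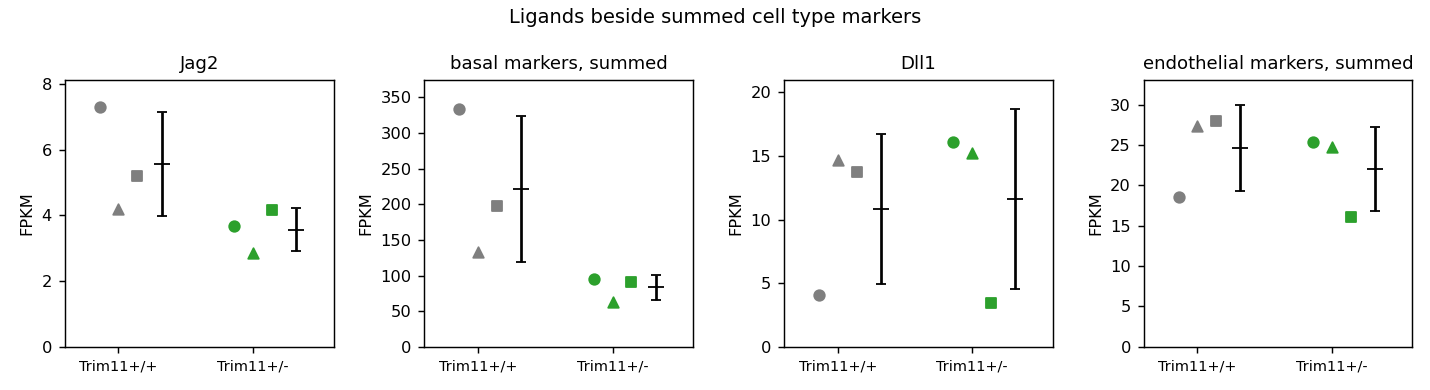
FPKM (vertical axes, linear, from 0) of Jag2 beside 6 summed basal and myoepithelial markers, and of Dll1 beside 7 summed endothelial markers, per tumor (grey Trim11+/+, green Trim11+/-, circle tumor 1, triangle tumor 2, square tumor 3), with the mean and SD. Jag2 and the basal sum are both lower in the Trim11+/- tumors, and Dll1 and the endothelial sum are both lowest in Trim11+/+ tumor 1 and Trim11+/- tumor 3.

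Of the 57 other pathway genes, 49 were analysed in tumors and 1 passed the rule, the cell cycle gene Ccnd1. It was at 71.2, 38.2 and 49.0 FPKM in Trim11+/+ and 31.9, 37.2 and 31.6 in Trim11+/- tumors, 1.57-fold lower without overlap (limma, Benjamini-Hochberg adjusted p = 0.699). The median log2 difference of the 49 genes was -0.044. Without the tumors that stood apart Ccnd1 no longer passed and Furin, a protease that matures Notch receptors, did, with higher levels in Trim11+/-. In that fit 2.68% of all genes passed as higher and 2.51% as lower, so 1 of 49 is near the background. Furin was at 13.8, 16.4 and 19.0 in Trim11+/+ and 24.3, 29.2 and 17.5 in Trim11+/- tumors.

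The genes most like 2 members were looked up among genes that reached 5 FPKM on average. JAG1, which varied most over the cell lines among members of at least this level, was most like CCDC88A (r = 0.99), KLHL5 (0.99) and the joint entry of DGAT1 and MIR6848 (0.98) over 7 libraries and 8792 genes. CCDC88A was at 21.2 FPKM in Control and 11.7 to 16.6 in the others. KLHL5 was at 26.9 and at 13.9 to 22.2, so both were highest in Control. Dll1, which varied most over the tumors among such members, was most like Rps2-ps10 (r = 0.998), Atp6v0c-ps2 (0.99) and Gm15929 (0.99) over 6 tumors and 9491 genes. The pseudogene Rps2-ps10 was at 277 and 275 FPKM in the tumors that stood apart and at 469 to 499 in the other 4, while Atp6v0c-ps2 was at 72.2 and 60.4 and at 153 to 182.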

How the data were processed

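The authors report poly(A) libraries that do not keep the strand, with reads trimmed by Cutadapt. They report mapping with HISAT2 2.1.0 to hg19 or mm10 and expression calculated with Cufflinks. The submitters' processing notes also name Bowtie 0.12.2 and the build mm8. The deposited unit is FPKM, in 1 table per species. Tumor FPKM were whole multiples of a read per gene length for at least 98.7% of values (within 0.01 read), which gave the read totals. The low values of the human table gave no common step, so depth and counting error are unknown there. The tables thus differ in this respect, and whether the same program made both was not tested. Of rows sharing a symbol the highest was kept, and 27 human symbols turned into dates were not used. Tests were run with limma 3.58.1 in R 4.3.3 (lmFit, eBayes with trend) on log2(FPKM + 1), which understates changes of low genes, over all genes that averaged at least 0.5 FPKM, with Benjamini-Hochberg adjustment over all of them, and were tested on simulated data. Other steps used Python 3.11.15, numpy 2.4.6, pandas 2.3.3, scipy 1.17.1 and matplotlib 3.10.9. Libraries were grouped by their GEO labels.

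All 10 members, TRIM11 and KDM5C were named. Of the other pathway genes those counted in a comparison were named, at most the 6 with the largest ratio. Furin in the tumors and CCND1 in the cell lines were named after their values were seen. Likeness was Pearson r on log2(FPKM + 1) for the member with the largest ratio of highest to lowest library among those that average at least 5 FPKM. The members and lists were chosen with earlier results of these data known. Alternatives were a pseudocount of 0.1, mean FPKM of at least 1 or above 0, a fold of 2, 2 scalings, eBayes without trend, a replicate block, other sets of libraries, and each replicate left out. Leaving out both tumors that stood apart and limma voom on recovered reads were added after the data were seen. The strain labels of the 6 tumors number the transgenic line 634 to 639, 1 per tumor, while the methods name 634. ChIP-Seq data were not analysed here.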

Additional observations from a re-analysis of the deposited data

How the results depend on the processing

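Leaving out each library in turn gave 0 to 2 members that passed the rule in tumors, and 0 to 2 with an unadjusted p under 0.05 (1 of each in the full set). The count was 2 without Trim11+/- tumor 3, where Hey1 joined, and 0 without Trim11+/+ tumor 1, Trim11+/+ tumor 3, Trim11+/- tumor 1 or Trim11+/- tumor 2 (there the p count stayed 1), as it was 0 with any mean FPKM above 0, with a fold of 2 (the p count stayed 1) and without both tumors that stood apart. Without these 2, Notch1 (0.14), Notch3 (0.12) and Jag1 (-0.038) changed sign. For the TRIM11 guide 2 to 4 members had an unadjusted p under 0.05 (4 in the full set), for the KDM5C guide 0 to 3 (2 in the full set), and for DKD against KDM5C-KD 1 to 2 (2 in the full set), with 1, HES1, without KDM5C-KD2 or DKD2. Against Control, 1 line at a time is a looser rule for every gene, and its counts of members are not read here. In the other settings, TRIM11-KD gave 1 member with ratios of FPKM + 1, 4 with any mean above 0 and 0 with a fold of 2. KDM5C-KD gave 2 with any mean above 0 and 2 with the mean of both lines, where JAG2 joined, and DKD gave 4 with any mean above 0. The members added with any mean above 0 were DLL1, DLL4 or HEY1, which were too low to be compared. The shares of all genes in these settings are not given, so the counts show only how far the rule matters. With a pseudocount of 0.1, NOTCH3 for the KDM5C guide changed sign to -0.042.

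Signs also changed with single libraries left out. In tumors the ranges were -0.40 to 0.020 for Notch1, -0.075 to 0.13 for Notch2, -0.24 to 0.12 for Notch3, -0.33 to 0.11 for Notch4, -0.048 to 0.32 for Jag1, -0.50 to 0.66 for Dll1 and -0.036 to 0.41 for Dll4. For the TRIM11 guide they were -0.087 to 0.070 for NOTCH2 and -0.0053 to 0.38 for NOTCH3. For the KDM5C guide they were -0.20 to 0.011 for NOTCH1, -0.059 to 0.098 for NOTCH2 and -0.16 to 0.19 for NOTCH3. In DKD against KDM5C-KD they were -0.24 to 0.066 for NOTCH2 and -0.14 to 0.63 for NOTCH3. Values against Control are log2 ratios of FPKM without the added 1, so they are on another scale. There, signs changed within -0.0034 to 0.15 for NOTCH2 and -0.17 to 0.70 for NOTCH3 in TRIM11-KD. They did so within -1.43 to 0.73 for NOTCH3 and -0.17 to 0.087 for HES1 in KDM5C-KD. In DKD the ranges were -0.14 to 0.17 for NOTCH2 and -0.39 to 1.10 for NOTCH3. With both lines, NOTCH3 was at 0.33 in TRIM11-KD and 0.54 in DKD, so not all of these differences were near 0. The direction of JAG1 and JAG2 was the same in all of these in the cell lines, as was that of Jag2, Hes1 and Hey1 in tumors. Where groups did not overlap, leaving out a library could not change the direction. This holds for JAG1 and JAG2 against Control and in DKD against KDM5C-KD, and for Jag2 in tumors. The Control library was not left out in the comparisons with Control. The causes were not tested.

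With the replicate number as a block, the TRIM11 guide had 2 members with an unadjusted p under 0.05 in place of 4 in the fit over the 6 knockdown libraries, and for the KDM5C guide NOTCH1 (0.011) and NOTCH2 (-0.059) changed sign. The numbers were not treated as a pairing. Deviations of same-numbered libraries correlated at -0.33 to 0.038 in tumors and at 0.088 to 0.37 in cell lines. With 2 lines per knockdown the deviations of the lines mirror each other, so values for unlike numbers differ only in sign. The highest value, 0.37, was that of TRIM11-KD with DKD, whose lines of the same number also share a TRIM11 guide. The fit with the block also leaves out Control, and leaving out Control alone gave 2 members too. In tumors the block changed no call, nor did limma voom on the recovered reads.

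Precision is limited by 1 Control library, 2 lines per knockdown and 3 tumors per genotype. Read numbers behind the human values are unknown, and genes that averaged under 0.5 FPKM could not be compared.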
